A study of Mus musculus with 20 samples.

Results

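The genes described here are 38 genes of the synaptic vesicle and its release machinery, taken by gene symbol from the 47729 genes on which reads were counted. They were chosen by name, with earlier results of these data known, and each symbol matched 1 gene. Sorted by role, they comprise 3 synapsins, 4 vesicle membrane proteins, 4 SNARE proteins, 5 calcium sensors, 2 synaptotagmins that are not classed as fast calcium sensors, 3 complexins, 7 genes of vesicle docking and priming at the active zone, 5 active zone scaffolds, 2 vesicular glutamate transporters and 3 genes of SNARE disassembly and vesicle recycling. RNA came from the cortex and the hippocampus of 5 WT and 5 Ube3aOE mice on a C57Bl/6J background at P7, so the 20 libraries represent 4 groups of 5 and each mouse gave 1 library per tissue. Ube3aOE mice carry additional copies of *Ube3a* on a bacterial artificial chromosome transgene with flanking mouse sequence, inserted outside the endogenous locus, while WT mice carry the endogenous gene alone. The transgene keeps the gene's own regulatory surroundings and is floxed, and no Cre is given in the labels. An effect of the insertion site and an effect of *Ube3a* dosage cannot be told apart with these groups. The study asked whether extra *Ube3a*, which encodes an E3 ubiquitin ligase, altered the transcriptome of either tissue, and the same libraries also allow the tissues to be compared.

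A nerve terminal loads glutamate into vesicles through vesicular transporters, tethers the vesicles with synapsins, and docks and primes them at the active zone through RIM and Munc13 proteins held by large scaffolds. Fusion is carried out by the SNARE proteins syntaxin, SNAP25 and synaptobrevin, clamped by complexins and triggered when a synaptotagmin binds calcium, after which SNAREs are taken apart and the membrane is retrieved through dynamin. Many of these proteins exist as paralogs with distinct distributions in the brain. In mice the first postnatal weeks are the main period of synapse formation in cortex and hippocampus. The RNA measured here is that of the whole dissected tissue, and RNA of cell bodies and of neuronal processes is not separated. Its levels need not follow the number of terminals whose cell bodies lie elsewhere.

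Between 14191093 and 16752326 reads were counted on genes per library (median 16295195). The cortex library of WT mouse 2 was the lowest. It had 69.7% of reads on genes, against 76.0% to 81.2% in the other libraries, and the most reads not aligned, at 8.66%. *Ube3a* checked the labels: its 5 Ube3aOE libraries lay above its 5 WT libraries in both tissues, with log2 fold changes of 1.32 in hippocampus (adjusted *P* = 0.000441, edgeR) and 1.31 in cortex (adjusted *P* = 0.000822). In the comparison of the tissues, 8 of 9 hippocampal markers were higher in hippocampus and 6 of 9 neocortical markers were lower, with 1 higher. Several libraries stood apart from their group in markers of neighbouring tissue. The thalamic transcription factor gene *Tcf7l2* measured 226 CPM (counts per 1000000 reads of the effective library size) in the hippocampus library of WT mouse 4 and 271, 46.2 and 564 CPM in those of Ube3aOE mice 7, 8 and 10, against 2.83 to 6.17 CPM in the other 6 hippocampus libraries. The summed level of 7 striatal markers was 658 CPM in the hippocampus library of Ube3aOE mouse 9 and 58.0 to 79.4 CPM in the other 9. The summed level of 9 neocortical markers was 701 and 669 CPM in the hippocampus libraries of mice 2 and 9 and 436 to 536 CPM in the other 8, while in cortex it was lowest in Ube3aOE mice 8 and 9, at 814 and 954 CPM, against 997 to 1246 CPM in the other 8 libraries. The summed level of 6 choroid plexus markers was 1946 and 344 CPM in the hippocampus libraries of Ube3aOE mice 7 and 9 and 8.27 to 32.1 CPM in the other 8. The fit without the hippocampus libraries with thalamic or striatal markers (mice 4, 7, 8, 9 and 10) also leaves out both of these. Where leaving out such libraries ended a call or moved a called tissue difference by more than 1.5 times, the value without them is given beside it. These fits were chosen after the marker values were seen, and the part of neighbouring tissue in the results was not tested.

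The 38 genes were mostly abundant. By mean CPM, 36 of them ranked above the 50th percentile of the 15661 genes tested and 24 above the 90th, with *Cplx2* the highest at percentile 99.8 and *Syt2* the lowest at 34.5. Per kilobase of the longest transcript, the scale on which different genes can be compared, the highest mean level was that of *Vamp2* (synaptobrevin-2, the vesicle SNARE of most forebrain terminals), at 487 CPM per kilobase in hippocampus and 552 in cortex. In the order of the hippocampus values, *Syp* (synaptophysin, an abundant vesicle membrane protein) followed at 386 and 374, *Rab3a* (a vesicle-bound small GTPase) at 367 and 389, *Cplx2* at 322 and 331 and *Slc17a7* (VGLUT1) at 286 and 221. In cortex the order differed: *Rab3a* lay above *Syp*, and *Syt1* at 244 and *Stx1a* at 242 lay above *Slc17a7*. At the other end were *Syt2*, at 1.75 CPM per kilobase in hippocampus and 0.954 in cortex, and *Cplx3* in hippocampus, at 1.20. Fewer cells of a type and less RNA per cell cannot be told apart in such bulk libraries.

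**Figure D1:**
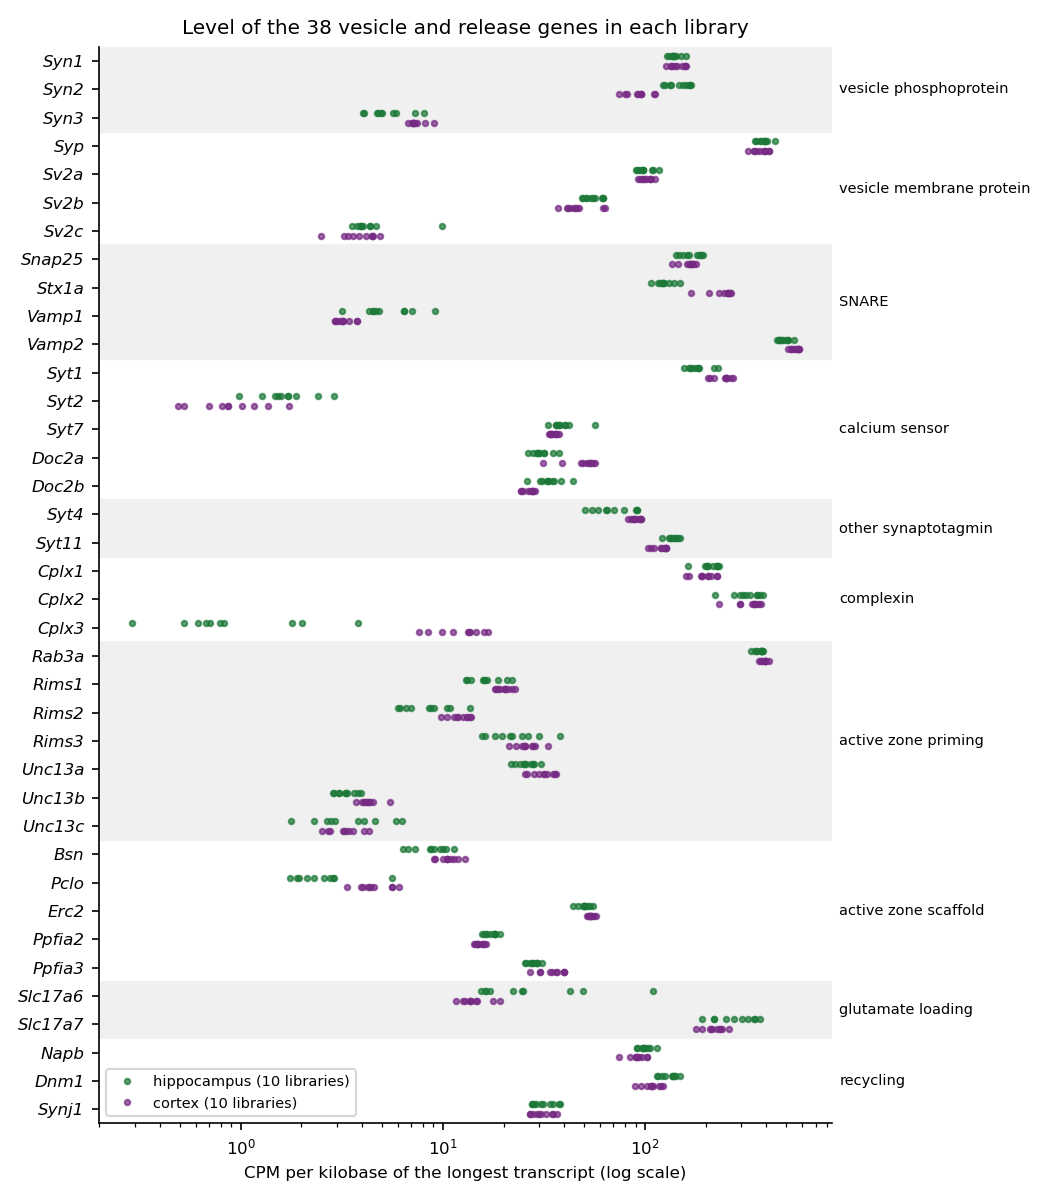
Level of each of the 38 genes in CPM per kilobase of the longest transcript (log axis), with 1 point per library in hippocampus (green) and cortex (purple) and genes ordered by role. *Syn2* lay higher in every hippocampus library, *Stx1a* and *Cplx3* lay lower in every one, and *Slc17a6* spread most widely upward in hippocampus.

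The tissues differed in many of these genes, and in both directions. Of the 38 genes, 27 differed between hippocampus and cortex over the mean of the genotypes (adjusted *P* under 0.05, edgeR quasi-likelihood test over 15661 genes), 11 higher in hippocampus and 16 lower, which is 71.1% of the genes against a background of 50.9% of all genes tested. In hippocampus, 28.9% were higher against 25.3% of all genes, and 42.1% were lower against 25.6%. This background is not matched for level, and the part of the high abundance of the 38 genes in these shares was not tested. Beyond a log2 fold change of 0.5, 4 genes were higher (10.5%, background 12.0%) and 4 lower (10.5%, background 7.24%). The median log2 fold change of the 38 genes was -0.03 and that of all genes -0.01. With a correction of every library for gene length and GC content, 9 of the genes were higher and 17 lower, while the split of all genes moved from 3963 higher and 4010 lower to 3349 higher and 5124 lower. Pan-neuronal markers moved the same way as the lower genes: 5 of 7 were lower in hippocampus and 1 higher, and their summed level ranged from 6059 to 7327 CPM in hippocampus and 7000 to 8649 CPM in cortex. Astrocyte markers moved the opposite way, with 5 of 6 higher in hippocampus and sums of 1102 to 1653 CPM against 729 to 960 CPM. The part of these shifts in the differences of the 38 genes was not tested.

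**Figure D2:**
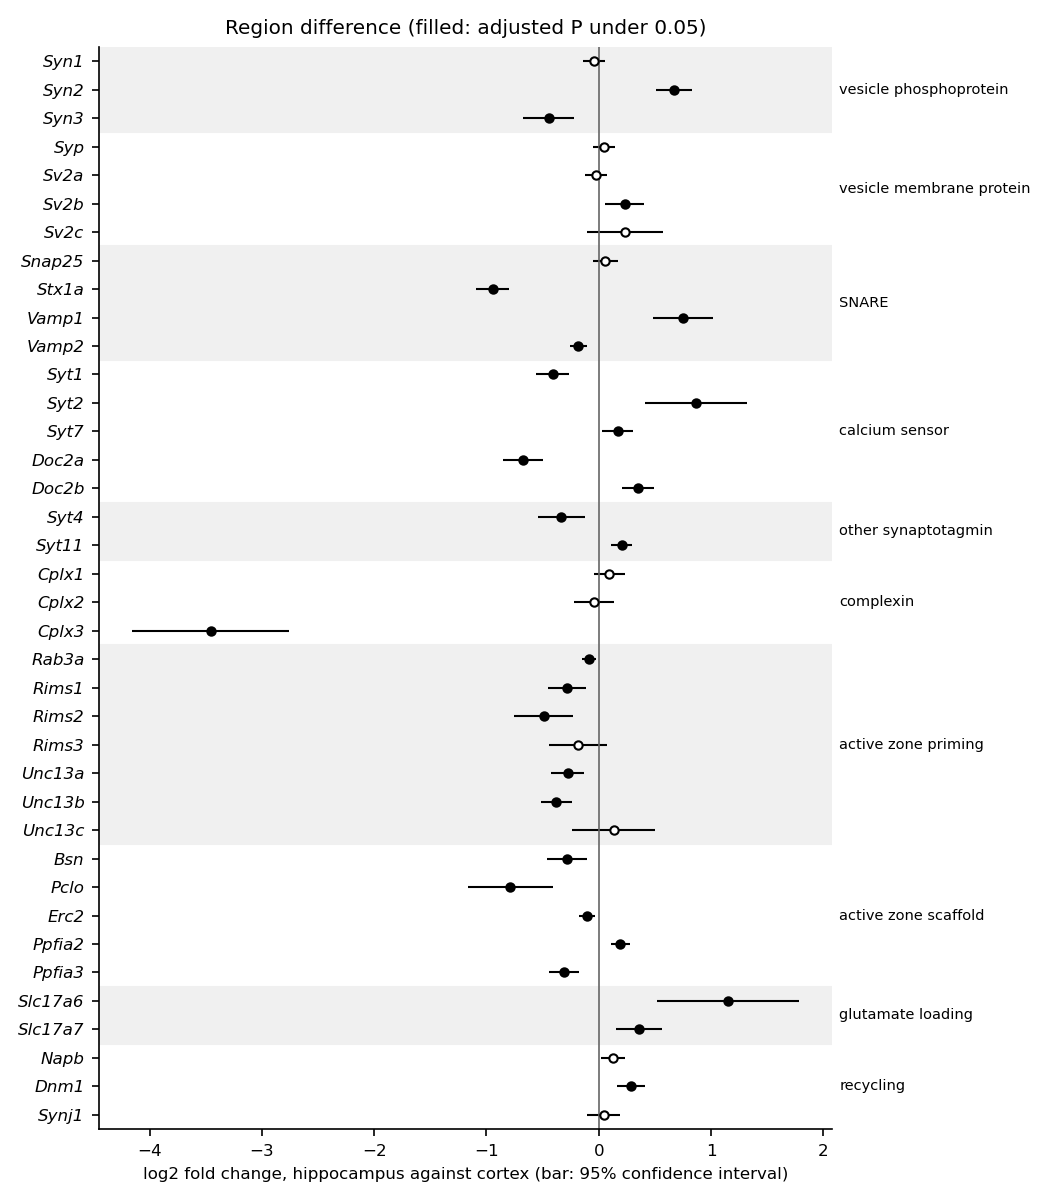
Log2 fold change of hippocampus against cortex for each of the 38 genes, with 95% confidence intervals and filled points where the adjusted *P* value was under 0.05. The values run from -3.45 for *Cplx3* to 1.15 for *Slc17a6*, and 4 of 5 scaffold genes and 5 of 7 priming genes lie below 0 with filled points.

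The synapsins, phosphoproteins that tether vesicles to each other and to the cytoskeleton, went separate ways. *Syn2* measured 476 to 650 CPM in hippocampus (median 583) and 287 to 433 CPM in cortex (median 361), so every hippocampus library lay above every cortex library. Its log2 fold change was 0.67 (SE 0.0764, adjusted *P* = 4.57e-07), the only gene of the 38 to lie above without overlap, against 5.52% of all genes. *Syn3* measured 19.3 to 38.7 CPM in hippocampus (median 23.8) and 32.1 to 43.4 CPM in cortex (median 34.3), and was lower in hippocampus in 9 of 10 mice (log2 fold change -0.44, SE 0.108, adjusted *P* = 0.00192). Without the thalamic libraries it gave -0.33 and missed the threshold (adjusted *P* = 0.0506), and without the striatal library as well it gave -0.48 (adjusted *P* = 0.0178). *Syn1*, at 419 to 520 CPM in hippocampus (median 453) and 413 to 523 CPM in cortex (median 466), gave a log2 fold change of -0.04 with a 95% interval of -0.14 to 0.05. The library lowest in hippocampus for *Syn2* was that of Ube3aOE mouse 7 and the highest in cortex that of Ube3aOE mouse 9.

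Of the vesicle membrane proteins, only *Sv2b* passed the test over all libraries, and its call was lost in 9 of 23 alternatives. With the correction for gene length and GC content *Sv2b* missed the threshold (adjusted *P* = 0.0580) and *Sv2a* passed it (-0.12, adjusted *P* = 0.0431). *Syp*, *Sv2a* and *Sv2c* gave log2 fold changes of 0.05, -0.02 and 0.23, with 95% intervals of -0.05 to 0.15, -0.12 to 0.07 and -0.10 to 0.57. The SV2 proteins are transporter-like glycoproteins of the vesicle membrane. In *Sv2c*, the hippocampus library of Ube3aOE mouse 9, which carries striatal markers, was the highest at 90.2 CPM. *Sv2b* ranged from 271 to 343 CPM in hippocampus (median 303) and from 205 to 353 CPM in cortex (median 248). It was higher in hippocampus in 8 of 10 mice (log2 fold change 0.23, SE 0.0833, adjusted *P* = 0.0252), and the 2 exceptions were Ube3aOE mice 8 and 9, whose cortex libraries gave 353 and 342 CPM. Without the libraries with outlying neocortical markers its log2 fold change was 0.37 (adjusted *P* = 2.97e-05). Without the thalamic libraries it was 0.23 (adjusted *P* = 0.0963), and without the striatal library as well 0.28 (adjusted *P* = 0.104). The call was also lost on leaving out mouse 2, mouse 6 or mouse 10 (adjusted *P* = 0.0677, 0.0731 and 0.0669, edgeR).

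Among the SNAREs, *Stx1a* had the smallest adjusted *P* of all 38 genes. *Stx1a* (syntaxin-1A, a plasma membrane SNARE) measured 232 to 323 CPM in hippocampus (median 267) and 365 to 579 CPM in cortex (median 556), without overlap. It was 1.92-fold lower in hippocampus (log2 fold change -0.94, SE 0.0710, adjusted *P* = 2.14e-09). The highest hippocampus library was that of WT mouse 2 and the lowest cortex library that of Ube3aOE mouse 8, which are among those with outlying neocortical markers, and without these libraries the log2 fold change was -1.05. The synaptobrevins moved in opposite directions. *Vamp2* was lower in hippocampus in all 10 mice, by a small amount, at 997 to 1203 CPM (median 1060) against 1128 to 1274 CPM (median 1230; log2 fold change -0.18, SE 0.0373, adjusted *P* = 0.000387). *Vamp1* (synaptobrevin-1, prominent in brainstem and spinal terminals) measured 18.2 to 52.2 CPM in hippocampus (median 27.2) and 16.7 to 21.6 CPM in cortex (median 18.2) and was higher in hippocampus in 9 of 10 mice (log2 fold change 0.75, SE 0.129, adjusted *P* = 7.34e-05). Its 4 highest hippocampus libraries were those of mice 4, 7, 9 and 10, at 40.3, 36.8, 36.9 and 52.2 CPM, all with thalamic or striatal markers, and without the libraries of those mice and of mouse 8 the log2 fold change was 0.45 (adjusted *P* = 0.00280). *Snap25*, the other plasma membrane SNARE, gave 0.06 with an interval of -0.05 to 0.17.

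All 5 calcium sensors differed between the tissues over all libraries, 3 higher in hippocampus and 2 lower, where 50.9% of all genes differed. The call for *Syt7* was lost in 12 of 23 alternatives and that for *Syt2* in 1. *Syt1*, the fast calcium sensor of most forebrain synapses, was lower in hippocampus in 9 of 10 mice, at 758 to 1104 CPM (median 867) against 995 to 1313 CPM (median 1221; log2 fold change -0.41, SE 0.0695, adjusted *P* = 4.72e-05). The highest hippocampus library was again that of WT mouse 2. *Syt2*, its fast paralog, best known from hindbrain and from some inhibitory neurons, was higher in hippocampus in all 10 mice, at 6.77 to 20.0 CPM (median 11.4) against 3.37 to 11.9 CPM (median 5.97; log2 fold change 0.86, SE 0.218, adjusted *P* = 0.00279), at counts of 45 reads or more per library. Its 2 highest hippocampus libraries were those of Ube3aOE mice 9 and 10, and without the thalamic and striatal libraries it gave 0.69 and missed the threshold (adjusted *P* = 0.0828). The DOC2 proteins, soluble calcium sensors linked to spontaneous and asynchronous release, also diverged. *Doc2a* was lower in hippocampus in all 10 mice, at 66.7 to 95.2 CPM (median 75.9) against 79.9 to 143 CPM (median 133; log2 fold change -0.68, SE 0.0853, adjusted *P* = 1.70e-06), and the 2 lowest cortex libraries were those of Ube3aOE mice 8 and 9. *Doc2b* was higher in 9 of 10 mice, at 114 to 192 CPM (median 145) against 106 to 124 CPM (median 119; log2 fold change 0.35, SE 0.0683, adjusted *P* = 0.000236). *Syt7*, a slower sensor of asynchronous release, gave 0.17 (SE 0.0669, adjusted *P* = 0.0387), but its adjusted *P* was 0.0566 with the mouse as a block, which ends the call. *Syt7* was highest in the hippocampus library of Ube3aOE mouse 10, at 376 CPM, and without the thalamic libraries it gave 0.06 (adjusted *P* = 0.304), and without the libraries with outlying neocortical markers 0.19 (adjusted *P* = 0.0521). Leaving out mouse 3, 4, 5 or 10 alone gave adjusted *P* values of 0.0577, 0.111, 0.0894 and 0.0811 (edgeR). For *Doc2a*, 39.4% of the exon bases lie antisense to exons of *Ino80e*, and the strand setting of the counting is not given in the sources used here.

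The other synaptotagmins, *Syt4* and *Syt11*, which do not act as fast calcium sensors, also went opposite ways. *Syt4* was lower in hippocampus in 8 of 10 mice, at 197 to 357 CPM (median 264) against 321 to 373 CPM (median 348; log2 fold change -0.33, SE 0.0993, adjusted *P* = 0.00900). *Syt11* was higher in hippocampus in all 10 mice, at 612 to 750 CPM (median 694) against 521 to 641 CPM (median 615; log2 fold change 0.20, SE 0.0451, adjusted *P* = 0.000712).

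Of the complexins, the clamps of the assembled SNARE complex, *Cplx3* was far lower in hippocampus than in cortex. It measured 0.834 to 10.9 CPM in hippocampus (median 2.13) and 21.8 to 47.7 CPM in cortex (median 38.4), without overlap, which was an 11.0-fold difference (log2 fold change -3.45, SE 0.332, adjusted *P* = 1.91e-07) at 14 reads or more per library. The complexin encoded by *Cplx3* is known from retinal ribbon synapses and from deep cortical layers. The highest hippocampus library, at 10.9 CPM, was that of WT mouse 2, followed by Ube3aOE mouse 9 at 5.72 CPM, the 2 hippocampus libraries with the most neocortical marker RNA. Without them and the cortex libraries of mice 8 and 9 the log2 fold change was -4.18. *Cplx1* and *Cplx2*, the forebrain complexins, gave 0.10 (95% interval -0.04 to 0.23) and -0.04 (-0.22 to 0.13). Across the 38 genes, *Stx1a* and *Cplx3* were the 2 that lay below without overlap (5.26%, background 3.74%).

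The promoter sequences of *Syn2*, *Stx1a* and *Cplx3* are shown because these are the 3 genes whose libraries did not overlap between the tissues. They come from RefSeq (GRCm38.p6) and run from 250 bases before to 50 bases after the transcription start, read 5′ to 3′ on the strand of the gene, with capitals marking GC boxes (GGGCGG on either strand). *Syn2* (ENSMUSG00000009394) lies on the plus strand and has 2 windows, of which that at chr6:115134652-115134951 is shown. *Stx1a* (ENSMUSG00000007207) also lies on the plus strand, with its window at chr5:135023232-135023531. *Cplx3* (ENSMUSG00000039714) lies on the minus strand, with its window at chr9:57606232-57606531.
Syn2: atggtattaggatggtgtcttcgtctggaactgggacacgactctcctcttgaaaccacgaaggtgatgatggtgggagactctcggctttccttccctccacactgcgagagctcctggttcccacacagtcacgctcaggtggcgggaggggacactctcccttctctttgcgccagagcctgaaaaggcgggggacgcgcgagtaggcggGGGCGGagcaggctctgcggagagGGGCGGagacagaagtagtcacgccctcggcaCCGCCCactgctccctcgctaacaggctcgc
Stx1a: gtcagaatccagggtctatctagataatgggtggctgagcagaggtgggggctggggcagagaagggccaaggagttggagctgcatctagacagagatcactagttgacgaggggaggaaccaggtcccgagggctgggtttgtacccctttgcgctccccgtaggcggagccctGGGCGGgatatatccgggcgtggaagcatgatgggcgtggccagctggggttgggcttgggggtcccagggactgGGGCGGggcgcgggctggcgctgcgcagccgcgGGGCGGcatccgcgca
Cplx3: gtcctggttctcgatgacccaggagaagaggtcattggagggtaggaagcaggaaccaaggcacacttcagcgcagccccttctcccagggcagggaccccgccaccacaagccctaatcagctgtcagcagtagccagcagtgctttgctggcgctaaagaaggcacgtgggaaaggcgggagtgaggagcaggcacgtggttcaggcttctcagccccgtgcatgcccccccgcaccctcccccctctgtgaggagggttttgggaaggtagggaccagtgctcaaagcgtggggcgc

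The windows shown for *Syn2* and *Stx1a*, which differ between the tissues in opposite directions, each hold 3 GC boxes, and that of *Cplx3* holds none. They contain 21, 19 and 11 CG dinucleotides. Entries were found for 30 of the 38 genes (39 windows, since some genes have several starts). Of these 39 windows, 26 (66.7%) hold a GC box on either strand, against 35.7% of all 32851 windows of the same length, and the median number of CG dinucleotides is 18 against 7. Only 1 window, that of *Syn1*, holds a cAMP response element (TGACGTCA, on either strand), against 1.79% of all windows. The TATA box letters TATAAA on either strand occur in 2 windows, both of *Sv2b* (5.13%, against 13.6% of all). The E-box letters CAGATG on either strand occur in 4 windows, 1 each of *Pclo*, *Rims3*, *Slc17a6* and *Syn2* (10.3%, against 17.2% of all). For *Syn2* they lie in the window that is not shown, and the sequence above does not contain them. No motif searched contains another, and no measurement of promoters was made in these samples.

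Of the 7 genes that dock and prime vesicles, 5 were lower in hippocampus (71.4%, against 25.6% of all genes) and 0 higher over all libraries, with a median log2 fold change of -0.28. *Rab3a* gave a small difference, at 521 to 598 CPM in hippocampus (median 584) against 569 to 638 CPM in cortex (median 611; log2 fold change -0.09, SE 0.0291, adjusted *P* = 0.0181), and lost its call in 9 of 23 alternatives, among them those without mouse 1, 5 or 9 (adjusted *P* = 0.0656, 0.0575 and 0.0974, edgeR) and without the thalamic libraries (-0.07, adjusted *P* = 0.155) or without the striatal library as well (-0.04, adjusted *P* = 0.508). The RIM genes *Rims1* and *Rims2* encode the scaffolds that bind Rab3 and calcium channels. *Rims1* was lower in 8 of 10 mice, at 83.8 to 141 CPM (median 104) against 117 to 147 CPM (median 131; log2 fold change -0.28, SE 0.0805, adjusted *P* = 0.00606). *Rims2* was lower in 9 of 10 mice, at 28.9 to 65.7 CPM (median 41.6) against 47.1 to 66.5 CPM (median 58.9; log2 fold change -0.49, SE 0.125, adjusted *P* = 0.00302), with WT mouse 2 the exception, and its highest hippocampus library was that of Ube3aOE mouse 10. Without the thalamic and striatal libraries *Rims2* gave -0.84 (adjusted *P* = 0.000600). The Munc13 priming factors *Unc13a* and *Unc13b* gave -0.28 (SE 0.0708, adjusted *P* = 0.00273) and -0.38 (SE 0.0666, adjusted *P* = 7.13e-05), each lower in 9 of 10 mice. *Unc13a* ranged from 224 to 314 CPM in hippocampus and 262 to 374 CPM in cortex, and *Unc13b* from 42.2 to 58.2 CPM and 55.3 to 80.6 CPM. Without the thalamic libraries *Unc13a* gave -0.22 (adjusted *P* = 0.0621), and without the striatal library as well -0.16 (adjusted *P* = 0.277), so its call was lost in both fits, whereas *Unc13b* kept its call in all 23 alternatives.

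*Rims3* and *Unc13c* did not pass the test over all libraries, at -0.19 (95% interval -0.45 to 0.07) and 0.13 (-0.24 to 0.50). Both were high in the hippocampus libraries with thalamic or striatal markers. *Unc13c* measured 35.9, 40.8, 33.6, 51.6 and 55.3 CPM in the hippocampus of mice 4, 7, 8, 9 and 10 and 15.6 to 25.8 CPM in that of the other 5. *Rims3* measured 161, 195, 143, 173 and 248 CPM in the same 5 libraries and 102 to 140 CPM in the others. Without these 5 libraries, *Rims3* was lower in hippocampus (log2 fold change -0.60, adjusted *P* = 0.000384) and so was *Unc13c* (-0.60, adjusted *P* = 0.00362), which turned its direction. That fit was chosen after the marker values were seen and leaves 1 Ube3aOE hippocampus library, which is assumed to vary like the other groups.

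Of the 5 active zone scaffolds, 4 were lower in hippocampus over all libraries (80.0%, against 25.6% of all genes) and 1 higher, with a median log2 fold change of -0.28. Of the 4 lower ones, *Erc2* lost its call in 8 of 23 alternatives, *Bsn* in 3, *Pclo* in 2 and *Ppfia3* in 1. *Pclo* (piccolo) measured 35.2 to 113 CPM in hippocampus (median 49.1) and 67.9 to 122 CPM in cortex (median 87.8), lower in 9 of 10 mice (log2 fold change -0.79, SE 0.178, adjusted *P* = 0.00130). The exception was WT mouse 2, with 113 CPM in hippocampus and 67.9 CPM in cortex. Without the thalamic and striatal libraries *Pclo* gave -0.67 and missed the threshold (adjusted *P* = 0.0883). *Bsn* (bassoon) measured 101 to 180 CPM in hippocampus (median 142) and 145 to 205 CPM in cortex (median 168; log2 fold change -0.28, SE 0.0852, adjusted *P* = 0.00927). Without the thalamic libraries *Bsn* gave -0.27 (adjusted *P* = 0.0586), and without the striatal library as well -0.30 (adjusted *P* = 0.116). The liprins, which link scaffolds to the plasma membrane, diverged: *Ppfia3* was lower in 9 of 10 mice (-0.31, SE 0.0642, adjusted *P* = 0.000395) and *Ppfia2* higher in 9 of 10 mice (0.19, SE 0.0403, adjusted *P* = 0.000499). *Ppfia3* ranged from 125 to 151 CPM in hippocampus and 133 to 195 CPM in cortex, and *Ppfia2* from 139 to 171 CPM and 127 to 146 CPM. *Erc2* (CAST) gave -0.10 (SE 0.0352, adjusted *P* = 0.0188). It missed the threshold on leaving out mouse 1, 4, 5 or 9 (adjusted *P* = 0.0502, 0.0614, 0.0530 and 0.0850, edgeR) and without the thalamic and striatal libraries (adjusted *P* = 0.109). For *Ppfia2*, 24.5% of the exon bases lie antisense to exons of other genes. The share is 16.8% for *Syp*, 14.5% for *Syt4* and 14.1% for *Syn3*.

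Both vesicular glutamate transporters were higher in hippocampus over all libraries, as were 25.3% of all genes. *Slc17a7* (VGLUT1, typical of cortical and hippocampal pyramidal cells) measured 594 to 1145 CPM in hippocampus (median 892) and 554 to 806 CPM in cortex (median 683), higher in 8 of 10 mice (log2 fold change 0.36, SE 0.0983, adjusted *P* = 0.00500). *Slc17a6* (VGLUT2, typical of thalamic and other subcortical neurons; ENSMUSG00000030500, chr7:51622006-51671119, GRCm38) measured 70.6, 92.4, 67.3, 177 and 64.0 CPM in the hippocampus of WT mice 1 to 5 and 67.8, 204, 102, 103 and 455 CPM in that of Ube3aOE mice 6 to 10, against 48.0 to 79.2 CPM in cortex. It was higher in hippocampus in all 10 mice (log2 fold change 1.15, SE 0.300, adjusted *P* = 0.00420). The 3 highest hippocampus values were those of mice 4, 7 and 10, which also had the 3 highest levels of *Tcf7l2*. Without the hippocampus libraries of mice 4, 7, 8 and 10 the log2 fold change of *Slc17a6* was 0.41 (adjusted *P* = 0.0138), and without mouse 9 as well it was 0.24 (adjusted *P* = 0.167). *Slc17a7* gave 0.43 and 0.61 in the same fits (adjusted *P* = 0.0116 and 0.000326). The part of thalamic RNA in the level of *Slc17a6* was not tested.

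**Figure D3:**
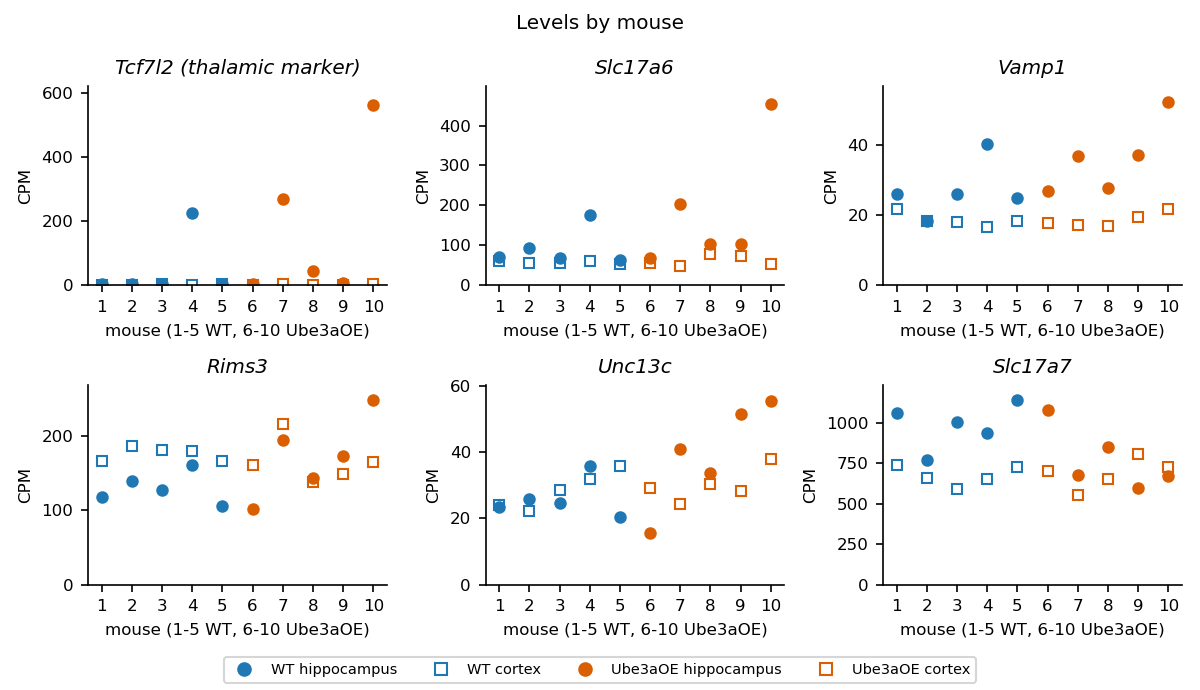
CPM of the thalamic marker *Tcf7l2* and of 5 of the 38 genes by mouse, with filled circles for hippocampus, open squares for cortex, blue for WT and orange for Ube3aOE. *Slc17a6* was highest in the hippocampus of mice 4, 7 and 10, at 177, 204 and 455 CPM, where *Tcf7l2* was 226, 271 and 564 CPM, while *Slc17a7* was lowest in the hippocampus of mice 7, 9 and 10.

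Of the 3 genes that act after fusion, *Dnm1* was higher in hippocampus in all 23 alternatives, and *Napb* passed or missed the threshold depending on the fit. *Dnm1* (dynamin-1, the GTPase that severs endocytic vesicles) was higher in hippocampus in all 10 mice, at 528 to 688 CPM (median 631) against 413 to 566 CPM (median 499; log2 fold change 0.29, SE 0.0607, adjusted *P* = 0.000476). *Napb* (beta-SNAP, which recruits the disassembly ATPase to used SNAREs) was higher in 9 of 10 mice and missed the threshold without a block (0.13, SE 0.0532, adjusted *P* = 0.0509). With the mouse as a block it passed (0.13, adjusted *P* = 0.00875), as it did by DESeq2 (adjusted *P* = 0.0382) and in 8 other alternatives, while without the thalamic libraries it gave 0.09 (adjusted *P* = 0.238). *Synj1* (synaptojanin-1, which uncoats vesicles) gave 0.04 (95% interval -0.11 to 0.19).

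The balance of paralogs differed between the tissues in 4 of 8 pairs. For 8 pairs, the share of 1 paralog in the summed level per kilobase was computed in each library and compared within mice by a two-sided exact permutation test over sign flips (10 mice, adjusted over 24 comparisons, smallest possible *P* = 0.00195). *Syn2* made up 51.2% ± 3.41 (SD, n = 10) of *Syn1* and *Syn2* in hippocampus and 39.1% ± 3.48 (SD, n = 10) in cortex, higher by 12.1 percentage points and in 10 of 10 mice (exact *P* = 0.00195, adjusted *P* = 0.0156). *Vamp1* made up 1.12% ± 0.308 of *Vamp1* and *Vamp2* in hippocampus and 0.585% ± 0.0491 in cortex, and *Syt2* made up 0.956% ± 0.296 of *Syt1* and *Syt2* against 0.381% ± 0.124. Both were higher in 10 of 10 mice (exact *P* = 0.00195, adjusted *P* = 0.0156), although *Vamp2* and *Syt1* remained the main member of their pair in every library. The share of *Vamp1* was 1.43%, 1.41%, 1.25% and 1.65% in the hippocampus of mice 4, 7, 9 and 10, and 0.621% to 1.00% in that of the others. The highest share of *Syt2*, 1.55%, was that of mouse 9. Without mice 4, 7, 8 and 10 the tissue differences were 0.351 percentage points for *Vamp1* and 0.599 for *Syt2*. Neither passed in that fit, where the smallest possible exact *P* is 0.0312 before adjustment. *Unc13b* made up 11.4% ± 1.06 of *Unc13a* and *Unc13b* in hippocampus and 12.2% ± 1.09 in cortex, lower in 9 of 10 mice (exact *P* = 0.00391, adjusted *P* = 0.0234). The shares of *Sv2b* (35.7% against 31.6%) and *Rims2* (34.1% against 37.7%) did not pass after adjustment (adjusted *P* = 0.131 and 0.172, exact tests), nor did that of *Cplx1* (39.8% against 37.4%, adjusted *P* = 0.305). *Slc17a6* made up 11.0% ± 9.10 of the 2 glutamate transporters in hippocampus and 6.16% ± 0.915 in cortex, and only 5 of 10 mice were higher (adjusted *P* = 0.296, exact test). Its share was 18.4% and 33.4% in the hippocampus of Ube3aOE mice 7 and 10 and 12.3% in that of WT mouse 4, and between 4.00% and 11.4% in the other 7.

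**Figure D4:**
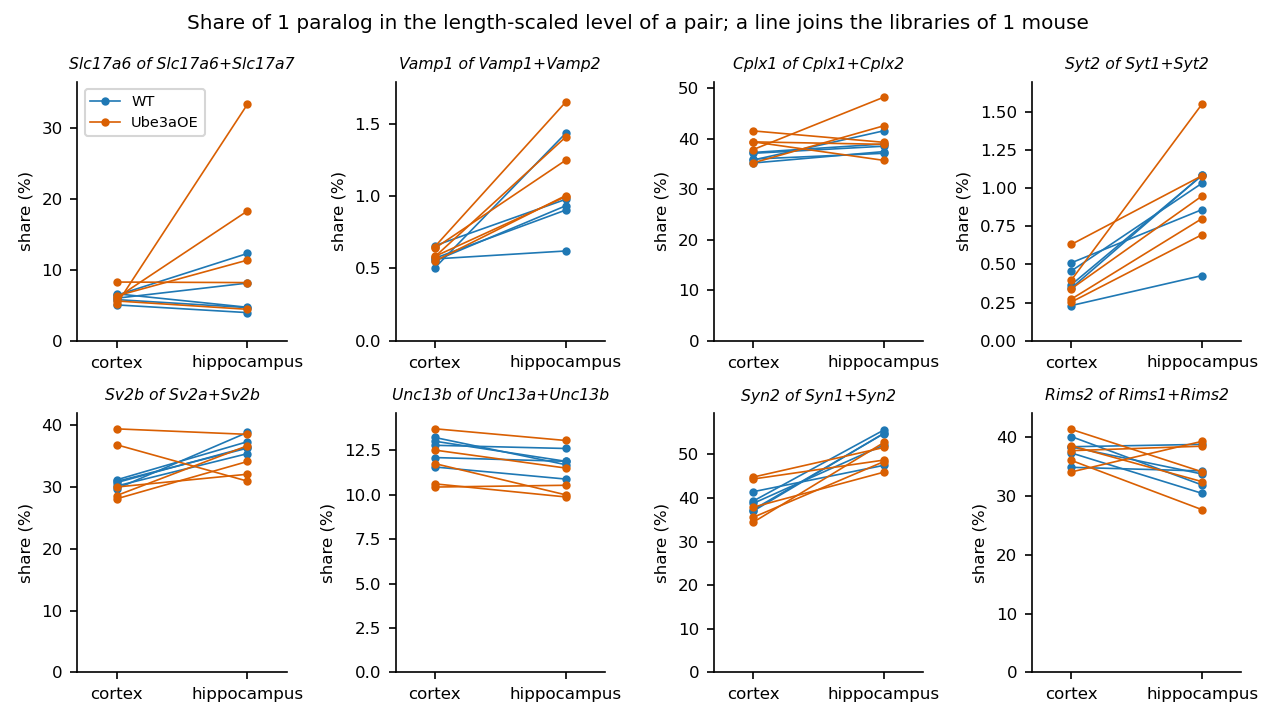
Share (%) of 1 paralog in the length-scaled level of each of 8 pairs, with a line joining the cortex and the hippocampus library of each mouse (blue WT, orange Ube3aOE). The lines of *Syn2*, *Vamp1* and *Syt2* rise in all 10 mice, and those of *Slc17a6* rise in 5 and fall in 5.

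The other genes of the vesicle cycle also differed in both directions. Of 72 such genes, 71 were tested and 42 differed between the tissues, 16 higher in hippocampus and 26 lower, with a median log2 fold change of 0.02. These are 59.2% of the genes tested against 50.9% of all genes, with 22.5% higher against 25.3% and 36.6% lower against 25.6%. The 4 largest differences among the higher genes were those of *Slc18a3* (the vesicular acetylcholine transporter; 1.94, adjusted *P* = 1.40e-06), *Slc18a2* (the vesicular monoamine transporter; 1.29, adjusted *P* = 0.000144), *Syt12* (1.07, adjusted *P* = 1.42e-06) and *Syt13* (0.72, adjusted *P* = 5.19e-05). *Slc18a3* was scarce in both tissues, at a mean of 1.79 CPM in hippocampus and 0.430 CPM in cortex. The 4 largest among the lower genes were those of *Syt6* (-1.94, adjusted *P* = 7.03e-05), *Slc17a8* (VGLUT3; -1.34, adjusted *P* = 7.55e-08), *Syt10* (-0.90, adjusted *P* = 3.26e-05) and *Rab3b* (-0.78, adjusted *P* = 4.40e-06). *Slc18a2* measured 19.3, 26.5, 19.1 and 32.2 CPM in the hippocampus of mice 4, 7, 8 and 10, with thalamic markers. In the other hippocampus libraries it measured 8.49 to 17.3 CPM. *Syt13* measured 216, 232, 176 and 335 CPM in the same libraries and 138 to 169 CPM in the others. In hippocampus *Slc18a3* and *Syt6* were highest in mouse 9, with striatal markers, at 4.63 and 35.3 CPM. *Syt12* overlapped between these libraries and the rest. The part of neighbouring tissue was not tested. In the list of endocytosis genes 11 of 21 were lower in hippocampus (52.4%, against 25.6% of all genes) and 2 higher (9.52%, against 25.3%), with a median of -0.09. In the list of further active zone genes 5 of 15 were lower (33.3%) and 4 higher (26.7%).

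The difference between the tissues had the same sign in WT and in Ube3aOE mice for all 27 genes that passed the test, and 11 of them passed in each genotype alone. The 27 genes were called on the mean over these same libraries, so the shared sign is largely set by that choice. Some of the genes that did not pass had opposite signs in WT and in Ube3aOE mice. The WT libraries alone called 24 of the 38 genes (12 higher, 12 lower), or 63.2% against 38.0% of all genes. The Ube3aOE libraries alone called 15 (7 higher, 8 lower), or 39.5% against 26.9% of all genes, so fewer were called in Ube3aOE among all genes too. The test of the difference between the genotypes is the interaction given after the genotype results.

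No genotype difference was detected in the vesicle and release genes. The hippocampus libraries with thalamic or striatal markers were those of WT mouse 4 and Ube3aOE mice 7, 8, 9 and 10. Such markers were thus unevenly divided between the genotypes, and the part of neighbouring tissue in the hippocampal comparison was not tested. In hippocampus, 0 of the 38 genes differed between Ube3aOE and WT at an adjusted *P* under 0.05 by edgeR, DESeq2 or limma voom (background 0.00657%, which is *Ube3a* itself), and the smallest adjusted *P* was 0.668. At an unadjusted *P* under 0.05 there were 3 (7.89%, background 7.21%) by edgeR, 7 (18.4%, background 7.76%) by DESeq2 and 4 (10.5%, background 7.04%) by limma voom. In cortex 0 of the 38 genes differed by edgeR, DESeq2 or limma voom. The background was 0.00669% by edgeR and limma voom and 0.0268% by DESeq2, which called 4 of all 14947 genes. In cortex 1 of the 38 genes had an unadjusted *P* under 0.05 by edgeR (2.63%, background 4.44%). There were 2 (5.26%) by DESeq2 (background 4.56%) and by limma voom (background 4.1%). The median log2 fold change of the 38 genes was 0.04 in hippocampus and 0.02 in cortex, and 22 and 23 of them were above 0.

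**Figure D5:**
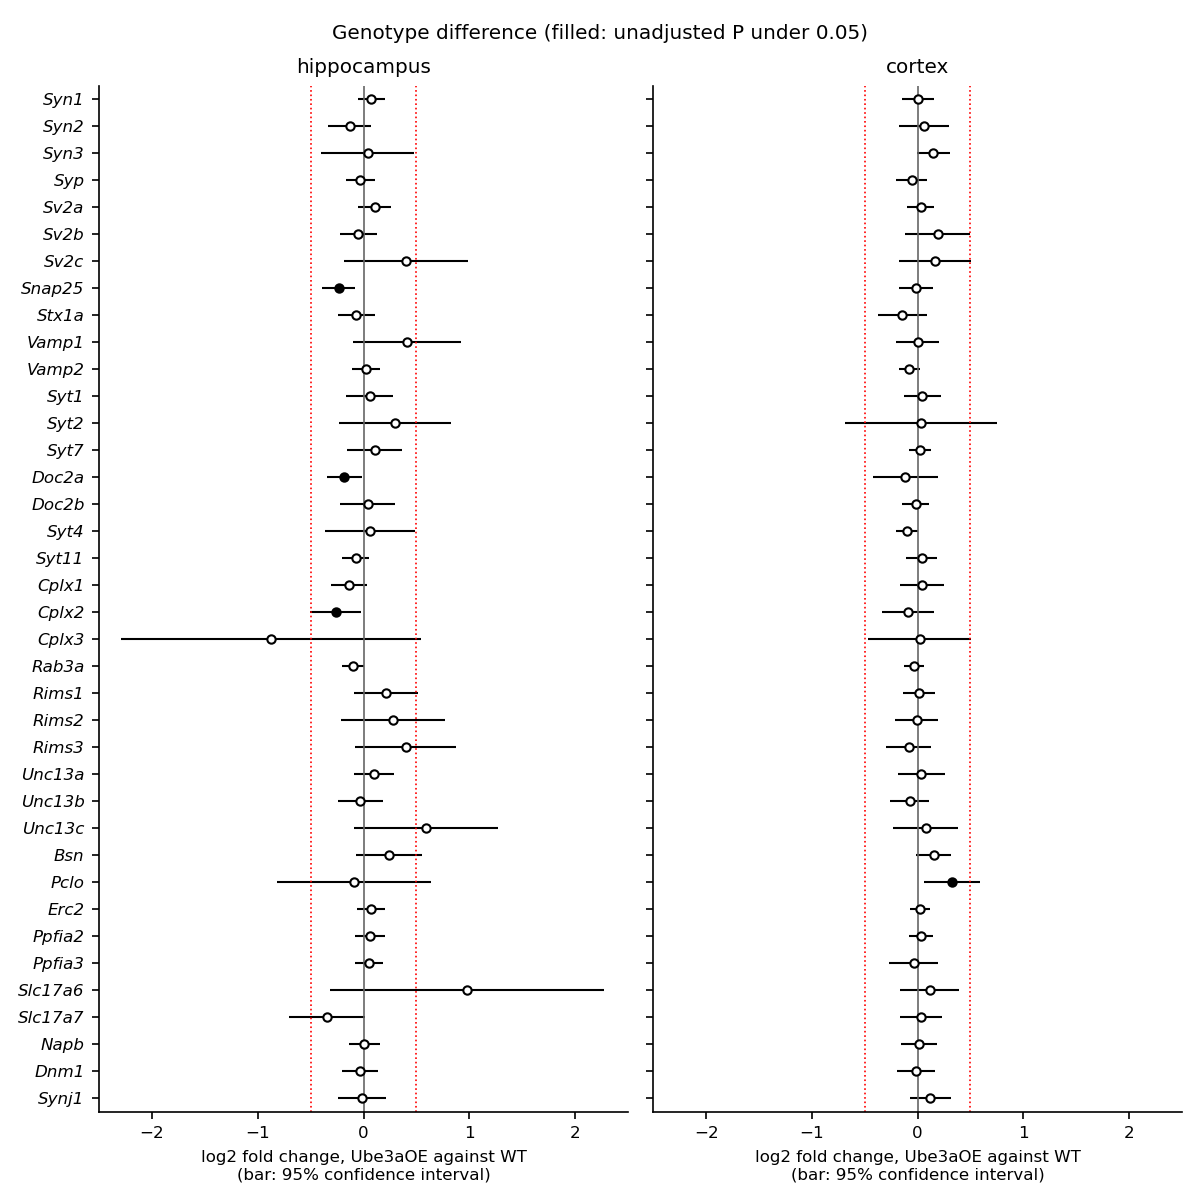
Log2 fold change of Ube3aOE against WT for each of the 38 genes in hippocampus and cortex, with 95% confidence intervals, filled points where the unadjusted *P* value was under 0.05, and red dotted lines at -0.5 and 0.5. No gene passed after adjustment, and the widest intervals in hippocampus are those of *Cplx3* and *Slc17a6*.

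The genes with an unadjusted *P* under 0.05 in hippocampus were *Snap25*, *Doc2a* and *Cplx2*, each lower in Ube3aOE. *Snap25* measured 921, 951, 929, 808 and 908 CPM in WT mice 1 to 5 and 791, 723, 884, 753 and 695 CPM in Ube3aOE mice 6 to 10. The groups overlapped, since WT mouse 4 lay below Ube3aOE mouse 8 (log2 fold change -0.23, 95% interval -0.39 to -0.08, unadjusted *P* = 0.00619, adjusted *P* = 0.668, edgeR). *Doc2a* measured 80.1, 88.8, 76.1, 75.8 and 95.2 CPM in WT and 80.9, 74.3, 66.7, 74.2 and 71.0 CPM in Ube3aOE (log2 fold change -0.18, 95% interval -0.35 to -0.01, unadjusted *P* = 0.0350, edgeR). *Cplx2* measured 1762, 1639, 1897, 1508 and 1841 CPM in WT and 1761, 1360, 1556, 1452 and 1094 CPM in Ube3aOE (log2 fold change -0.26, 95% interval -0.50 to -0.02, unadjusted *P* = 0.0361, edgeR). For *Cplx2* the lowest library of each genotype was a library with thalamic markers, that of mouse 4 in WT and that of mouse 10 in Ube3aOE. Without the hippocampus libraries of mice 4, 7, 8 and 10, *Snap25* gave -0.26 (unadjusted *P* = 0.00456), *Doc2a* -0.13 (unadjusted *P* = 0.244) and *Cplx2* -0.15 (unadjusted *P* = 0.169, all edgeR). That fit keeps only the libraries of mice 6 and 9 in Ube3aOE, and that of mouse 9 carries striatal and choroid plexus markers. After adjustment it called 0 of 15537 genes, so *Ube3a* itself was not called. The part of neighbouring tissue in these differences was not tested.

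In cortex the gene with an unadjusted *P* under 0.05 was *Pclo*, which measured 86.7, 67.9, 92.3, 80.9 and 86.2 CPM in WT mice 1 to 5 and 79.5, 88.8, 113, 122 and 113 CPM in Ube3aOE mice 6 to 10. The groups overlapped through mice 6 and 7 (log2 fold change 0.32, 95% interval 0.06 to 0.59, unadjusted *P* = 0.0203, adjusted *P* = 0.960, edgeR). Over 17 alternatives by edgeR, DESeq2 or limma voom its unadjusted *P* ran from 0.00181 to 0.102. The cortex libraries of mice 8 and 9 were those with the lowest neocortical markers, and no genotype fit in cortex left out both. The lowest value, 67.9 CPM, was that of WT mouse 2, whose cortex library had the lowest share of reads on genes. In hippocampus the same gene gave -0.09, with a 95% interval of -0.82 to 0.64.

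The intervals show which sizes of change the data allow. A 95% interval lay wholly between -0.5 and 0.5 for 34 of the 38 genes in cortex (89.5%, background 73.8% of all genes) and for 25 in hippocampus (65.8%, background 69.9%). In cortex, the 4 genes with wider intervals were *Sv2c*, *Syt2*, *Cplx3* and *Pclo*. In hippocampus the widest intervals among the 38 genes belonged to *Cplx3* (-0.87, 95% interval -2.29 to 0.55) and *Slc17a6* (0.98, 95% interval -0.32 to 2.28). *Slc17a6* was at least 100 CPM in 4 of 5 Ube3aOE hippocampus libraries and in 1 of 5 WT libraries, and 3 of those 4 and the WT library carried the thalamic marker. Without the libraries of mice 4, 7, 8 and 10 its genotype difference was 0.21 (unadjusted *P* = 0.323, edgeR). In Ube3aOE that fit keeps only mice 6 and 9, the latter with striatal markers, and it did not call *Ube3a* either. *Slc17a7* had the opposite sign in hippocampus, at 1064, 773, 1003, 935 and 1145 CPM in WT and 1080, 676, 848, 594 and 674 CPM in Ube3aOE (log2 fold change -0.35, 95% interval -0.71 to 0.01). No paralog share differed between the genotypes in either tissue after adjustment (smallest adjusted *P* = 0.218, two-sided exact permutation test, 5 against 5 mice, with 0.00794 the smallest *P* the design allows before adjustment). The smallest belonged to *Cplx1* in cortex, at 38.6% ± 2.34 (SD, n = 5) in Ube3aOE and 36.2% ± 0.896 (SD, n = 5) in WT.

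The genotype difference was not shown to differ between the tissues for any of the 38 genes. The interaction test called 0 of the 38 genes and 0 of all 15661 (0.0%) by edgeR and by DESeq2. At an unadjusted *P* under 0.05 there were 0 of the 38 genes by edgeR, against 3.77% of all genes, and 1 by DESeq2 (2.63%, background 3.85%). With the mouse as a block, edgeR also called 0 of all genes. At an unadjusted *P* under 0.05 that fit gave 1 of the 38 genes (2.63%), against 6.03% of all genes. The interaction log2 fold changes ran from -0.89 for *Cplx3* to 0.87 for *Slc17a6*.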

How the data were processed

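Cortex and hippocampus were taken from the same 10 pups at P7 (5 WT, 5 Ube3aOE). RNA was purified with an RNeasy kit and made into stranded mRNA libraries. Per the submitters' processing notes, reads were aligned with HISAT2 2.1.0 to GRCm38 (mm10) and counted with HTSeq 0.11.2, and the deposited values are raw read counts per gene. The annotation release and the strand setting of the counting are not given in the sources used here. The 5 lines of each table that name no gene (4.46% to 7.12% of reads without a feature, 2.74% to 8.66% not aligned) were left out.

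Counts were tested with edgeR 4.0.16 (TMM, filterByExpr, robust quasi-likelihood F test, R 4.3.3), with Benjamini-Hochberg adjustment over all genes tested, a threshold of 0.05 and a border of 0.5 on the log2 fold change. Tissues were compared over 4 groups and 20 libraries, and genotypes within each tissue. All 38 genes passed the filter on low counts in each comparison. CPM used TMM-scaled library sizes, and CPM per kilobase divided them by the longest GENCODE M21 transcript. A prior count of 2 entered only the log2 CPM used for the correction for length and base composition and for the correlations between libraries. The log2 fold changes were those returned by each tool. DESeq2 1.42.0, limma voom 3.58.1, no filter, the labelled sex, leaving out mice and libraries, and a spline correction (5 degrees of freedom) for gene length and base composition were alternatives. Fits without libraries chosen by their markers were added after seeing the data. Genes to be named were every member where the tissues were compared, members with an unadjusted *P* under 0.05 where genotypes were compared, and, of the other vesicle-cycle genes, the 4 with the largest change in each direction. The members and gene lists were chosen with earlier results of these data known.

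Libraries of the same mouse deviated together. The correlation of their deviations from the group means had a median of 0.215 over 10 mice (-0.0367 to 0.248, above 0.1 in 9), against -0.0426 over 40 pairs of different mice. The pairing comes from the mouse numbers in the labels. The labels number each mouse as a separate animal. Libraries held 14191093 to 16752326 counts on genes, and the biological coefficient of variation was 14.9% in hippocampus and 12.1% in cortex.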

Additional observations from a re-analysis of the deposited data

Results flagged for a closer look

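In groups of 5 libraries, 10 of 152 group values held a library far from the other 4 by Dixon's criterion (critical value 0.71), where chance gives about 1 in 20 groups, or 7.6. In the hippocampus of WT mouse 2, *Stx1a* was the highest at 323 CPM (nearest 270), *Syt1* at 1104 CPM (nearest 853) and *Pclo* at 113 CPM (nearest 51.8). In the hippocampus of WT mouse 4, *Slc17a6* was the highest at 177 CPM (nearest 92.4). In the hippocampus of Ube3aOE mouse 9, *Sv2c* was the highest at 90.2 CPM (nearest 42.7), and in that of Ube3aOE mouse 10 *Syt7* was the highest at 376 CPM (nearest 268).

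In cortex the outlying libraries were the lowest of their group. *Syn2* was 315 CPM in WT mouse 3 (nearest 352), *Snap25* 711 CPM in WT mouse 2 (nearest 811), *Syt4* 339 CPM in WT mouse 5 (nearest 364) and *Syt11* 521 CPM in Ube3aOE mouse 7 (nearest 606).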

How the results depend on the processing

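Of the 27 genes that differed between the tissues, 10 kept their call in all 23 alternatives, 17 lost it at least once (*Syt7* in 12) and none changed sign. With the mouse as a replicate block, 27 genes were called (71.1%, against 55.8% of all genes), 11 higher and 16 lower, with *Syt7* lost and *Napb* gained. The block changed no other call. In Ube3aOE libraries alone 7 genes were higher (18.4%, against 14.4% of all genes) and 8 lower (21.1%, against 12.5%). The fit without the 5 hippocampus libraries with thalamic or striatal markers leaves 1 Ube3aOE hippocampus library, so its number of calls is not given. The causes were not tested, and these fits hold fewer libraries.

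Among genes that did not pass, the direction of the log2 fold change turned in Ube3aOE libraries alone for *Syn1* (0.0031), *Sv2a* (0.026), *Snap25* (-0.040), *Rims3* (0.066) and *Synj1* (-0.014), and in WT libraries alone for *Cplx2* (0.058) and *Unc13c* (-0.11). *Syp* turned with the length and GC correction (-0.030, and -0.029 with the block as well). *Cplx2* was 0.026 without mice 2 and 10. Without the thalamic libraries *Cplx2* was 0.059 and *Unc13c* -0.052, and without the striatal library too they were 0.13 and -0.60. Leaving out each mouse in turn gave -0.051 to 0.0038 for *Sv2a* and -0.11 to 0.030 for *Cplx2*.

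For paralog shares (percentage points), leaving out each mouse gave genotype differences in cortex of -0.066 to 0.029 for *Syt2*, -1.21 to 0.603 for *Rims2*, -0.203 to 0.584 for *Slc17a6*, -0.696 to 1.90 for *Syn2* and 1.69 to 3.27 for *Cplx1*, which passed without mouse 7. In hippocampus they were -0.016 to 0.198 for *Syt2* and -0.644 to 2.26 for *Rims2*. The tissue difference of *Sv2b* was 3.55 to 5.21 and passed without mouse 9. Without mice 2 and 10 the hippocampal genotype differences were -0.016 for *Syt2* and -0.328 for *Rims2*, and without mice 4, 7, 8 and 10 that of *Cplx1* was -0.708. In the latter 6 mice the tissue differences were 13.4 for *Syn2*, 0.351 for *Vamp1*, 0.599 for *Syt2* and -1.003 for *Unc13b*, with none past the threshold, since the smallest exact *P* with 6 mice is 0.0312 before adjustment.

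Leaving out each mouse, 1 to 9 of the 38 genes had an unadjusted *P* under 0.05 for genotype in hippocampus (edgeR), against 3 with all (7.89%, 7.21% of all genes). The share of all genes moved as well. There were 8 without mouse 2 (21.1%, all genes 9.85%), 5 without mouse 4 (13.2%, 8.19%), 9 without mouse 6 (23.7%, 12.5%) and 1 (2.63%) without mouse 5, 7 or 10 (all genes 4.53%, 7.85% and 4.16%). In cortex the count was 0 to 5, against 1 with all (2.63%, all genes 4.44%). It was 0 without mouse 2 or 9 (all genes 3.27% and 2.75%), 3 without mouse 5 (7.89%, 4.82%), 5 without mouse 7 (13.2%, 5.96%) and 2 (5.26%) without mouse 1, 6 or 10 (4.53%, 7.6% and 5.19%). None passed after adjustment in any of these fits.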
